A study of Mus musculus with 20 samples.

Results

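Genes that encode the proteasome, its assembly factors and its regulators were followed in endothelial cells of mouse ear skin. Members were chosen by symbol alone. A probe set counted where it carried exactly 1 gene symbol that began with Psma, Psmb, Psmc, Psmd, Psme, Psmf or Psmg and a digit, and Psmb8 and Psmb9 were left out. For each gene the probe set with the highest mean over the 20 arrays was used. This gave 47 genes from 50 of the 41345 probe sets in the table. Probe sets were tested where 4 or more arrays read above their own median; this filter on low values left 14886 probe sets of 14178 genes, among them 46 of the 47 members. The gene that did not pass was Psmb11, the catalytic subunit of the thymus, whose values ran from 2.86 to 3.97 on the log2 scale.

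By role, the 47 genes comprised 7 of the 20S alpha ring, 9 of the 20S beta ring, 6 ATPases and 11 non-ATPase subunits of the 19S particle, 7 assembly chaperones, 4 activators and 1 inhibitor. The last 2, Psmc3ip and Psme3ip1, match the rule by symbol but encode partners of other proteins rather than proteasome components. Most members are subunits found in every cell, but Psmb10 is a catalytic subunit of the immunoproteasome, and Psme1 and Psme2 encode the interferon-inducible PA28 activator, so these 3 were described apart. Psma8 is a testis-specific alpha subunit. Psma4 was not among the members because both of its probe sets, 2 in number, carried a second symbol.

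The study used 20 Affymetrix arrays of CD31+CD45-Ter119- cells sorted from ears digested with collagenase. All mice received 5 daily injections of tamoxifen, DNFB (2,4-dinitrofluorobenzene, a skin-sensitising hapten) was put on the skin on days 0 and 1 to sensitise them, and the ear was challenged once on day 5. Ears were taken 24 hours later, and 1 ng of total RNA was amplified per array. The groups were control mice with vehicle-treated ears (6 arrays), control mice with DNFB-treated ears (6 arrays), NICD1-EC-OE mice with vehicle-treated ears (4 arrays) and NICD1-EC-OE mice with DNFB-treated ears (4 arrays). The NICD1-EC-OE mice, called NICD mice here, carried an allele for the constitutively active Notch1 intracellular domain at the Rosa26 locus, switched on in endothelium by Cre. Their genotype label reads Pdgfb-CreERT2; R26-NICD, while the growth protocol names a CDH5-iCre driver. The alleles of the control mice are given only as control, and what the vehicle was, the ages and any pooling of animals are not given in the labels used here. NICD vehicle replicate 4 is a vehicle array by its title and a DNFB array by its description, and was kept as vehicle; on the first principal component of all probe sets tested it scored -44.3, among the vehicle arrays. Nothing in the labels says that replicates came from separate mice, so p-values measure the spread between these samples.

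The proteasome is the main protease for ubiquitin-tagged proteins. Its 20S core is a barrel of alpha and beta rings with the active sites inside, and the 19S particle caps the barrel, binds and strips the ubiquitin chain and unfolds the substrate with a ring of ATPases. Interferon replaces the catalytic subunits by those of the immunoproteasome, which makes peptides for antigen presentation, and shortage of proteasome activity raises the transcription of most subunit genes together through the factor Nfe2l1.

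DNFB raised most of the proteasome genes in both genotypes. In control mice 35 of the 46 genes tested were higher after DNFB and 0 were lower (limma, adjusted p under 0.05), where 23.7% of all probe sets tested were higher and 23.6% lower. In NICD mice 36 were higher and 0 lower, where 20% of all probe sets were higher and 18.1% lower. The median log2 difference of the 46 genes was 0.79 in control mice and 0.93 in NICD mice, beside medians of -0.0012 and 0.0067 over all probe sets. In control mice 15 genes rose at least 2-fold (5.57% of all probe sets did) and 31 had every DNFB array above every vehicle array (13.6%). In NICD mice these counts were 17 (5.56%) and 37 (19.9%). The genes that rose were shared: 34 were called in both genotypes, which is 34 of the 35 in control mice and 34 of the 36 in NICD mice. Only Psmd9 was called in control mice alone, and only Psmg2 and Psmg4 in NICD mice alone. Without control DNFB replicate 3, which had the lowest score of its group on the first principal component (31.8, beside 40.8 to 56.2), 37 genes were higher in each genotype. Without NICD vehicle replicate 4, whose labels conflict, 35 were higher in NICD mice. The 9 genes called in neither were Psma5, Psma8, Psmb10, Psmd5, Psme1, Psme2, Psme4, Psmf1 and Psme3ip1.

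**Figure D1:**
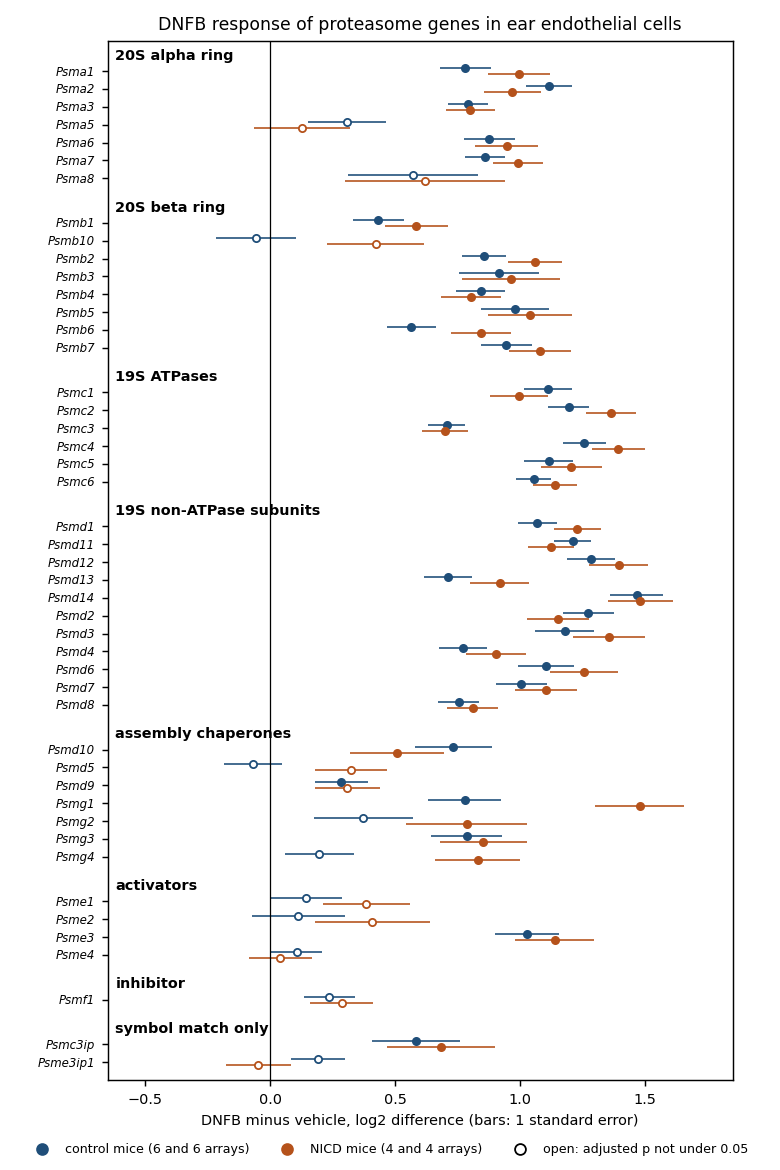
Log2 difference between DNFB and vehicle ears for each of the 46 genes tested, grouped by role, in control mice (blue, 6 and 6 arrays) and NICD mice (orange, 4 and 4 arrays); bars are 1 standard error and open points did not pass adjusted p 0.05. All 17 subunits of the 19S particle lie to the right of 0 with filled points in both genotypes, while Psmb10, Psme1, Psme2 and Psme4 have open points.

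Other cells' markers moved with DNFB too. Of 8 neutrophil markers tested, 8 were higher in control mice and 7 in NICD mice, and the mean log2 level of the 9 listed went from 3.11 to 3.52 across control vehicle arrays to 4.99 to 6.02 across control DNFB arrays. In NICD mice that mean was 3.24 to 3.47 in vehicle arrays and 5.15 to 5.45 in DNFB arrays. Of the 9 neutrophil markers 6 lay under the array median on every control vehicle array, and 0 did on the DNFB arrays. Of 8 macrophage and monocyte markers tested, 4 were higher in each genotype, and of 4 platelet markers, 4 and 3 were higher. Of 9 keratinocyte markers, 4 were higher and 1 lower in control mice and 3 were higher in NICD mice; their mean level was 5.67 to 6.95 in control vehicle arrays and 7.27 to 9.41 in control DNFB arrays. Of 10 endothelial markers, 9 were lower in control mice (median log2 difference of the list -0.59) and 5 in NICD mice (-0.31). Their mean level was 10.18 to 10.46 in control vehicle arrays and 9.37 to 9.77 in control DNFB arrays. In NICD mice it was 10.05 to 10.24 with vehicle and 9.59 to 9.84 with DNFB. The treatments thus did not overlap in either genotype. No endothelial marker lay under the array median on every array of a group. Of 8 pericyte and smooth muscle markers, 7 were lower in control mice (median log2 difference of the list -0.80) and 6 in NICD mice (-1.38). Of 7 fibroblast markers, 3 were higher in control mice, and 2 were higher and 2 lower in NICD mice. The part of these other cells in the rise of the proteasome genes was not tested. In sorted bulk cells a different mix of cells and a different amount of RNA per cell cannot be told apart.

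Because so many members moved together, their promoters are shown for the best-known binding site of the Nfe2l1 family, the antioxidant response element, and for the CCAAT box, the site of the factor NF-Y. The windows are the 250 bases before the annotated start, from RefSeq on GRCm38.p6, written 5′ to 3′ on the gene's strand. Psmb5 and Psmb6 encode active sites, Psmd12 and Psmd14 were the most raised non-ATPase subunits in control mice, and Psme4 did not pass. Capitals mark TGACNNNGC (the core of the element) on either strand in Psmb5, Psmb6 and Psmd12, and CCAAT read on the opposite strand in Psmd14; the Psme4 window holds neither.
Psmb5: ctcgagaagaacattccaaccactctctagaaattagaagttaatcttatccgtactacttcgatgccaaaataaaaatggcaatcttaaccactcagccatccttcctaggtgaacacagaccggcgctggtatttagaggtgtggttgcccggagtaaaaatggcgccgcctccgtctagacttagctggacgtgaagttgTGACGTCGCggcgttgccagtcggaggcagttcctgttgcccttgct
Psmb6: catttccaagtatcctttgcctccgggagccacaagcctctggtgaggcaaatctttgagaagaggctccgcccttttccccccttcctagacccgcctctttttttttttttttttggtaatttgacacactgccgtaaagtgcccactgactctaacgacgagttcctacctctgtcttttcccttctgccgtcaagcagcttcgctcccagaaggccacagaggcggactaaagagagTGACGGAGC
Psmd12: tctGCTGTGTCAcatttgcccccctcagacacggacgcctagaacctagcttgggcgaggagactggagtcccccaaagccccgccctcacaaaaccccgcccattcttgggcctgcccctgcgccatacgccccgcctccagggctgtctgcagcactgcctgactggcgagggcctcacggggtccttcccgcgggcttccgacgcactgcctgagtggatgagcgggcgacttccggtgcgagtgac
Psmd14: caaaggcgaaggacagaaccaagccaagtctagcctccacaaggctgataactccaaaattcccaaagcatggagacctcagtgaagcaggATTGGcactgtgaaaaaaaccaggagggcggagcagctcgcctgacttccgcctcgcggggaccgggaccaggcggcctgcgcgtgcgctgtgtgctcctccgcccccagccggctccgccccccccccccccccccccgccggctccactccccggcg
Psme4: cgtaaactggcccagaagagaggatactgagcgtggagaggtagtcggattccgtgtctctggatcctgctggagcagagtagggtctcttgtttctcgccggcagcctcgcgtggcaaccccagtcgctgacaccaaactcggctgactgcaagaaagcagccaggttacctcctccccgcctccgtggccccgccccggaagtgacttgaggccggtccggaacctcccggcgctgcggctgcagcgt

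The windows lie at chr14:54617996-54618245 (minus strand) for Psmb5, chr11:70525107-70525356 (plus strand) for Psmb6, chr11:107479278-107479527 (plus strand) for Psmd12, chr2:61711444-61711693 (plus strand) for Psmd14 and chr11:30771525-30771774 (plus strand) for Psme4. RefSeq windows were matched for 39 of the 47 members. The element's core was present in 5 of them (Psmb5, Psmb6, Psmc6, Psmd12 and Psmd9), and in 10.2% of all 32851 windows of that length. All 5 were among the 29 matched genes that rose in control mice, and 0 were among the 10 others, which include the untested Psmb11. The call of Psmd9 in control mice was lost in 7 of 31 alternatives. Whether the element goes with the rise was not tested. CCAAT was present in 15 of the 39 (13 of the 29 and 2 of the 10), and in 33.8% of all windows. No member held both motifs. These are matches of letters, and whether any factor binds there was not measured.

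In the alpha ring, which forms the gate of the 20S barrel, 5 of 7 genes rose in each genotype (Psma1, Psma2, Psma3, Psma6 and Psma7). The largest difference in control mice was that of Psma2. Its log2 values ran from 8.61 to 8.88 with a median of 8.73 in control vehicle arrays, and from 9.60 to 10.14 with a median of 9.82 in control DNFB arrays. In NICD mice the vehicle arrays read 8.69, 8.89, 8.61 and 8.78 and the DNFB arrays 9.76, 9.69, 9.67 and 9.72. DNFB and vehicle arrays did not overlap in either genotype. The log2 difference was 1.12 ± 0.09 (SE; adjusted p 6.92e-09) in control mice and 0.97 ± 0.11 (adjusted p 1.26e-06) in NICD mice. The other 4 that rose did so by 0.78 to 0.88 in control mice and by 0.80 to 0.99 in NICD mice. The 2 genes not called, Psma5 and Psma8, were near the array median: group means ran from 3.24 to 4.14 for Psma5 and from 3.33 to 4.00 for Psma8, where array medians were 3.87 to 3.98 in control and 3.52 to 3.62 in NICD mice. A second probe set of Psma5 read lower still and did not pass the filter on low values. Values this low limit what can be said of Psma5. For Psma8 the difference in control mice was 0.57 ± 0.26 (adjusted p 0.0787), and it passed without control DNFB replicate 3 (0.78, adjusted p 0.00842) and without control vehicle replicate 5 (0.71, adjusted p 0.0328). In NICD mice the vehicle arrays of Psma8 read 3.10, 3.56, 3.76 and 3.11 and the DNFB arrays 3.92, 4.02, 3.79 and 4.29, which did not overlap. The difference of 0.62 ± 0.32 did not pass there (adjusted p 0.139), but did with only the groups compared in the fit (adjusted p 0.0193).

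In the beta ring, which carries the active sites, 7 of the 8 genes tested rose in each genotype, all but Psmb10. Psmb5 encodes the chymotrypsin-like active site. Its control vehicle arrays ran from 9.43 to 10.05 (median 9.92) and its control DNFB arrays from 10.32 to 11.19 (median 10.85), on the log2 scale. NICD vehicle arrays read 9.67, 10.01, 9.78 and 9.41, and NICD DNFB arrays 10.74, 10.83, 10.73 and 10.73. The groups did not overlap, and the difference was 0.98 ± 0.14 (adjusted p 5.42e-06) in control and 1.04 ± 0.17 (adjusted p 4.63e-05) in NICD mice. Psmb7, the trypsin-like site, ran from 8.66 to 9.09 (median 8.82) in control vehicle arrays and from 9.54 to 10.10 (median 9.73) in control DNFB arrays. Its NICD vehicle arrays read 8.54, 8.76, 8.77 and 8.51, and its NICD DNFB arrays 9.61, 9.73, 9.86 and 9.71. Psmb7 thus rose with no overlap in either genotype, by 0.94 ± 0.10 (adjusted p 1.81e-07) and 1.08 ± 0.12 (adjusted p 8.7e-07).

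Psmb6, the caspase-like site, had the smallest rise of the 3 active sites of the constitutive core. The control vehicle arrays of Psmb6 ran from 8.56 to 8.96 (median 8.84) and its control DNFB arrays from 9.17 to 9.55 (median 9.35). NICD vehicle arrays read 8.90, 9.25, 8.89 and 8.83, and NICD DNFB arrays 9.85, 9.96, 9.75 and 9.69. The groups did not overlap, and the difference was 0.56 ± 0.10 (adjusted p 6.33e-05) in control and 0.84 ± 0.12 (adjusted p 1.01e-05) in NICD mice. The structural subunits Psmb1, Psmb2, Psmb3 and Psmb4 rose by 0.43, 0.86, 0.92 and 0.84 in control mice and by 0.58, 1.06, 0.96 and 0.80 in NICD mice. Control vehicle and DNFB arrays overlapped for Psmb1 and Psmb3 only; for Psmb3, control DNFB replicate 3 read 5.12, below the highest vehicle array at 5.35.

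All 6 ATPases of the 19S particle, the motor that unfolds the substrate, rose in both genotypes with no overlap between vehicle and DNFB arrays. Psmc4 rose most in control mice. Its values ran from 8.48 to 8.81 (median 8.70) in control vehicle arrays and from 9.76 to 10.15 (median 9.90) in control DNFB arrays. NICD vehicle arrays read 8.50, 8.59, 8.41 and 8.38 and NICD DNFB arrays 9.88, 9.97, 9.85 and 9.75. The lowest DNFB array was thus above the highest vehicle array in both genotypes. The log2 difference was 1.26 ± 0.09 (adjusted p 5.65e-10), a 2.39-fold rise, in control mice and 1.39 ± 0.11 (adjusted p 7.04e-09), 2.63-fold, in NICD mice. The others rose by 0.71 (Psmc3) to 1.19 (Psmc2) in control mice and by 0.70 (Psmc3) to 1.36 (Psmc2) in NICD mice. A second probe set of Psmc2 also passed, with differences of 1.19 ± 0.20 and 2.31 ± 0.24.

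All 11 non-ATPase subunits of the 19S particle rose in both genotypes, again without overlap, by 0.71 to 1.47 in control and by 0.81 to 1.48 in NICD mice. Psmd14, the deubiquitinase that removes the ubiquitin chain, had the largest difference of all 46 genes in control mice. Its control vehicle arrays ran from 6.79 to 7.14 (median 6.97) and its control DNFB arrays from 8.12 to 8.73 (median 8.45). NICD vehicle arrays read 6.98, 7.29, 6.77 and 7.11 and NICD DNFB arrays 8.59, 8.58, 8.42 and 8.49. Every DNFB array lay above every vehicle array, and the difference was 1.47 ± 0.11 (2.76-fold, adjusted p 9.68e-10) in control and 1.48 ± 0.13 (2.79-fold, adjusted p 3.34e-08) in NICD mice. Psmd12, a scaffold subunit of the lid, rose by 1.28 ± 0.10 (adjusted p 1.33e-09) and 1.39 ± 0.12 (adjusted p 1.94e-08). Psmd2 and Psmd1, the large subunits of the base on which ubiquitin receptors dock, rose by 1.27 and 1.07 in control mice and by 1.15 and 1.23 in NICD mice. The smallest rises in control mice were those of Psmd13 (0.71), Psmd8 (0.75) and the ubiquitin receptor Psmd4 (0.77).

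**Figure D2:**
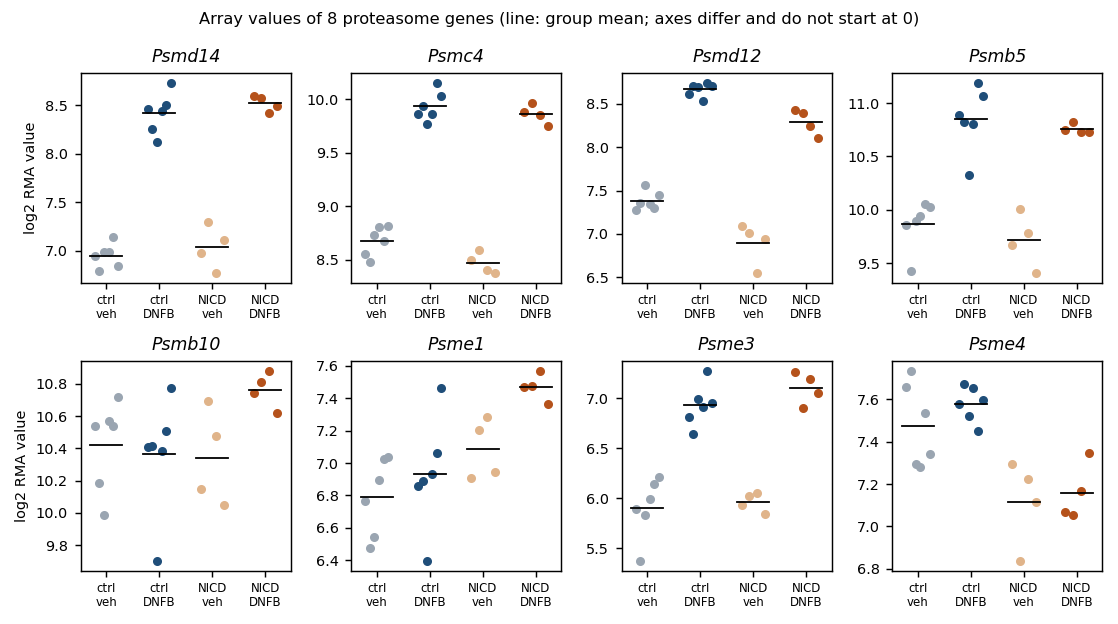
Log2 value on each array for 8 proteasome genes in the 4 groups (points are arrays, lines group means; the axes differ between genes and do not start at 0). Psmd14, Psmc4, Psmd12, Psmb5 and Psme3 show DNFB arrays apart from vehicle arrays, whereas the arrays of Psmb10, Psme1 and Psme4 overlap in control mice.

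The core and the cap can be set side by side as the mean log2 difference of their genes from the vehicle mean of the same genotype. For the 12 genes of the 20S rings without Psma5, Psma8 and Psmb10, a set trimmed with their values known, the control DNFB arrays averaged 0.83 ± 0.17 (SD, n = 6), from 0.57 to 1.05, and the NICD DNFB arrays 0.92 ± 0.04 (n = 4), from 0.89 to 0.97. For the 17 genes of the 19S particle these means were 1.07 ± 0.10 (0.95 to 1.22) and 1.15 ± 0.06 (1.07 to 1.22). Vehicle arrays lay between -0.12 and 0.15 for both sets. Every DNFB array was therefore above every vehicle array in both sets and both genotypes. The 3 genes left out of the 20S set were called in neither genotype, so leaving them out favours a rise of that set. No test was made of the means of these sets.

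**Figure D3:**
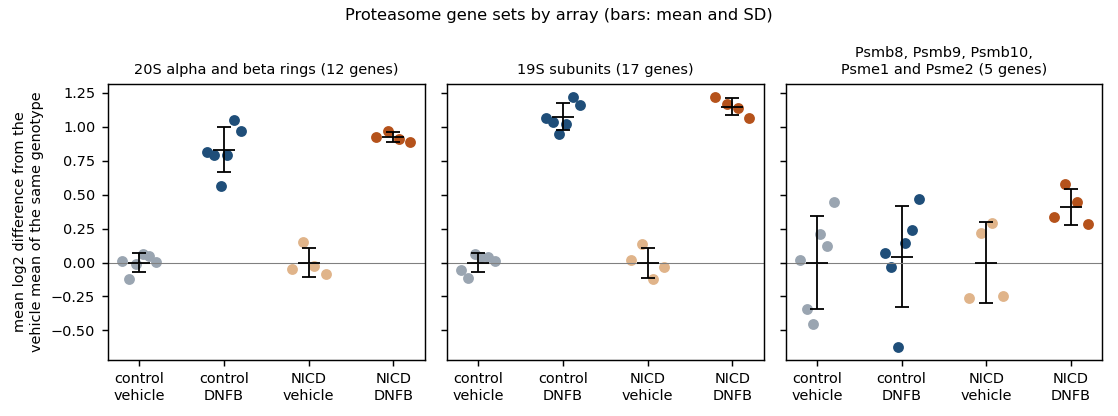
Mean log2 difference from the vehicle mean of the same genotype, by array, for 12 genes of the 20S rings (without Psma5, Psma8 and Psmb10, which were not called), 17 genes of the 19S particle and the 5 genes Psmb8, Psmb9, Psmb10, Psme1 and Psme2. Bars are mean and SD over 6 control or 4 NICD arrays per group. DNFB arrays of the first panel lie at 0.57 to 1.05 and of the second at 0.95 to 1.22. In the third panel control DNFB arrays run from -0.62 to 0.47 (mean 0.04) and control vehicle arrays from -0.45 to 0.44. NICD DNFB arrays there run from 0.28 to 0.58 (mean 0.41) and NICD vehicle arrays from -0.26 to 0.29. The treatments thus overlap in both genotypes in that panel.

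Of the 7 assembly chaperones, 4 rose in control mice and 5 in NICD mice. Psmg3, which helps to start the alpha ring, had the largest difference in control mice. With vehicle, control arrays ran from 5.60 to 6.28 (median 6.01) and with DNFB from 6.31 to 7.29 (median 6.76). NICD vehicle arrays read 5.85, 5.82, 6.04 and 5.68 and NICD DNFB arrays 6.57, 6.65, 6.96 and 6.64. The groups met without overlapping in control mice and were well apart in NICD mice, with differences of 0.79 ± 0.14 (adjusted p 0.000105) and 0.85 ± 0.17 (adjusted p 0.000507).

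Psmg1, which pairs with Psmg2 in building the alpha ring, rose by 0.78 ± 0.14 (adjusted p 0.000158) in control mice and by 1.48 ± 0.18 (adjusted p 1.54e-06) in NICD mice. Its control vehicle arrays ran from 6.65 to 7.03 (median 6.76) and its control DNFB arrays from 7.19 to 7.94 (median 7.55), while the NICD arrays read 6.34, 6.46, 5.63 and 6.35 with vehicle and 7.85, 7.77, 7.61 and 7.45 with DNFB. Against control mice, NICD mice were lower with vehicle (-0.60 ± 0.16, adjusted p 0.00749; -0.28 with each array centred on its median) and gave 0.10 ± 0.16 with DNFB (adjusted p 0.654). Psmg4, the partner of Psmg3, differed by 0.20 ± 0.14 (adjusted p 0.26) in control mice and rose by 0.83 ± 0.17 (adjusted p 0.000552) in NICD mice. Its control vehicle arrays ran from 5.84 to 6.18 (median 6.03) and its control DNFB arrays from 5.73 to 6.41 (median 6.33); NICD arrays read 5.42, 6.28, 5.96 and 5.83 with vehicle and 6.47, 6.86, 6.92 and 6.56 with DNFB. The control groups thus overlapped and the NICD groups did not. For Psmg2 the differences were 0.37 ± 0.20 (adjusted p 0.132) and 0.79 ± 0.24 (adjusted p 0.014), but the latter was 0.60 (adjusted p 0.0654) without NICD DNFB replicate 1 and the former passed without control vehicle replicate 2 (0.52, adjusted p 0.0215). A second probe set of Psmg2 gave -0.02 and 0.10, neither past the threshold.

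The remaining chaperones act on the ATPase ring. Psmd10 (gankyrin) rose by 0.73 ± 0.15 (adjusted p 0.000493) in control and by 0.51 ± 0.19 (adjusted p 0.0376) in NICD mice; the call in NICD mice was lost without any one of the 4 NICD DNFB arrays or of NICD vehicle replicates 3 and 4, with adjusted p up to 0.138. Its control arrays ran from 6.49 to 7.43 (median 6.96) with vehicle and from 7.42 to 7.88 (median 7.65) with DNFB, and its NICD arrays read 6.95, 6.92, 6.30 and 6.24 with vehicle and 7.04, 7.14, 7.24 and 7.02 with DNFB. The groups of Psmd10 thus touched in control mice and lay close together in NICD mice. Psmd9 rose by 0.28 ± 0.11 (adjusted p 0.0312) in control mice and gave 0.31 ± 0.13 (adjusted p 0.0651) in NICD mice, so the 2 values lie within 1 SE of each other although only the first passed. That call was lost without control vehicle replicate 1 or 2 or control DNFB replicate 1, 2 or 4 (adjusted p 0.0502 to 0.0786), and the value in NICD mice passed without NICD vehicle replicate 2 (0.40, adjusted p 0.0207). For Psmd5 the difference was -0.07 ± 0.12 (adjusted p 0.659) in control and 0.32 ± 0.14 (adjusted p 0.0839) in NICD mice. Its control arrays ran from 7.14 to 7.60 (median 7.43) with vehicle and from 6.99 to 7.66 (median 7.34) with DNFB. NICD arrays of Psmd5 read 7.65, 7.30, 7.35 and 7.36 with vehicle and 7.72, 7.67, 7.96 and 7.61 with DNFB, and both genotypes' groups overlapped; without NICD vehicle replicate 1 the NICD difference passed (0.40, adjusted p 0.0469).

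Of the 4 activators, which open the gate of the core, only Psme3 rose. Psme3 encodes PA28 gamma, the nuclear activator. In control mice the vehicle arrays ran from 5.37 to 6.21 (median 5.94) and the DNFB arrays from 6.65 to 7.27 (median 6.93), while NICD arrays read 5.93, 6.02, 6.05 and 5.85 with vehicle and 7.26, 6.91, 7.19 and 7.05 with DNFB. The groups did not overlap in either genotype, and the difference was 1.03 ± 0.13 (2.04-fold, adjusted p 1.36e-06) in control and 1.14 ± 0.16 (2.2-fold, adjusted p 8.13e-06) in NICD mice. Psme4, which encodes the large nuclear activator PA200, gave 0.11 ± 0.10 (adjusted p 0.416) in control and 0.04 ± 0.12 (adjusted p 0.837) in NICD mice, the latter negative with cyclic loess (-0.02). Its control arrays ran from 7.28 to 7.74 (median 7.44) with vehicle and from 7.45 to 7.67 (median 7.59) with DNFB, and the groups overlapped. The inhibitor Psmf1 (PI31) gave 0.24 ± 0.10 (adjusted p 0.0622) and 0.29 ± 0.12 (adjusted p 0.0787). These passed in control mice without control vehicle replicate 3, control DNFB replicate 3 or NICD vehicle replicate 3 (adjusted p 0.0389 to 0.0492), in NICD mice without NICD vehicle replicate 2 (adjusted p 0.0476), and in both with quantile normalization (0.29 and 0.33) and with cyclic loess (0.29 and 0.36).

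The interferon-inducible members did not pass in either genotype in the fit without a replicate block, and in NICD mice each of them passed under some alternative. On the log2 scale, Psmb10 ran from 9.99 to 10.72 (median 10.54) in control vehicle arrays and from 9.70 to 10.77 (median 10.41) in control DNFB arrays. NICD arrays read 10.15, 10.69, 10.48 and 10.05 with vehicle and 10.75, 10.81, 10.88 and 10.62 with DNFB. Vehicle and DNFB arrays overlapped in both genotypes. The difference was -0.06 ± 0.16 (adjusted p 0.793) in control and 0.42 ± 0.20 (adjusted p 0.0988) in NICD mice. The value in NICD mice passed with the replicate number as a fixed block (adjusted p 0.0152). It also passed without control DNFB replicate 3 (adjusted p 0.0456) and without NICD vehicle replicate 2 (0.54, adjusted p 0.0484). In control mice the difference was 0.07 without control DNFB replicate 3.

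Psme1 and Psme2, the subunits of PA28, gave differences of 0.14 ± 0.14 (adjusted p 0.435) and 0.11 ± 0.19 (adjusted p 0.654) in control mice. Psme1 ran from 6.48 to 7.04 (median 6.83) in control vehicle and from 6.40 to 7.46 (median 6.91) in control DNFB arrays, and Psme2 from 6.87 to 7.71 (median 7.17) and from 6.97 to 7.69 (median 7.51). In NICD mice Psme1 read 6.91, 7.20, 7.29 and 6.94 with vehicle and 7.47, 7.48, 7.57 and 7.36 with DNFB, and Psme2 read 6.56, 6.92, 7.61 and 6.72 with vehicle and 7.23, 7.81, 7.08 and 7.32 with DNFB. Psme1 arrays did not overlap in NICD mice, yet its difference of 0.38 ± 0.18 did not pass (adjusted p 0.0912). It did where only the groups compared entered the fit (adjusted p 0.0350) and with a fixed replicate block (adjusted p 0.0244). The difference of Psme2 was 0.41 ± 0.23 (adjusted p 0.176), and 0.63 (adjusted p 0.0300) without NICD vehicle replicate 3. The 2 immunoproteasome genes left out of the rule, Psmb8 and Psmb9, did not pass either, with 0.12 ± 0.22 (adjusted p 0.691) and -0.09 ± 0.23 (adjusted p 0.765) in control mice and 0.59 ± 0.27 (adjusted p 0.0923) and 0.25 ± 0.28 (adjusted p 0.539) in NICD mice. Psmb8 passed in NICD mice with a fixed replicate block (adjusted p 0.00215) and with only the groups compared (adjusted p 0.0225). It also passed there without control DNFB replicate 3 (adjusted p 0.0491).

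The mean of these 5 genes varied more between arrays of 1 group than the means of the 20S and 19S sets did. In control vehicle arrays the mean of the 5 genes ran from -0.45 to 0.44 around the group mean (SD 0.34), where the 19S set ran from -0.11 to 0.07 (SD 0.07). In NICD DNFB arrays the SDs were 0.13 and 0.06. A mean over more genes that move less together varies less, so these SDs do not compare single genes. The 5 genes also varied together. Over the 20 arrays, with group means removed, the median pairwise correlation was 0.91 among Psmb8, Psmb9, Psmb10, Psme1 and Psme2, 0.44 among the 12 genes of the 20S rings, 0.39 among the 17 of the 19S particle, 0.28 among all 46 genes tested and 0.0076 over all probe sets tested. Between the 5 genes and the 19S genes it was 0.28. Among the members Psmb10, Psme1 and Psme2 alone, without Psmb8 and Psmb9, it was 0.56, and Psme1 followed Psme2 at 0.56. Psmb10 followed Psme1 at 0.91 (Spearman's rho 0.92) and Psme2 at 0.52 (rho 0.56). Without the 2 arrays farthest from the median of Psmb10, which were control replicate 3 with DNFB and with vehicle, these were 0.87 and 0.49. The values share arrays, amplification and normalization, so the correlations are descriptions with no p. Control replicate 3 had the lowest Psmb10 in both treatments, 0.66 under the mean of its group with DNFB and 0.44 under it with vehicle, and control replicate 6 the highest, 0.41 and 0.30 above.

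**Figure D4:**
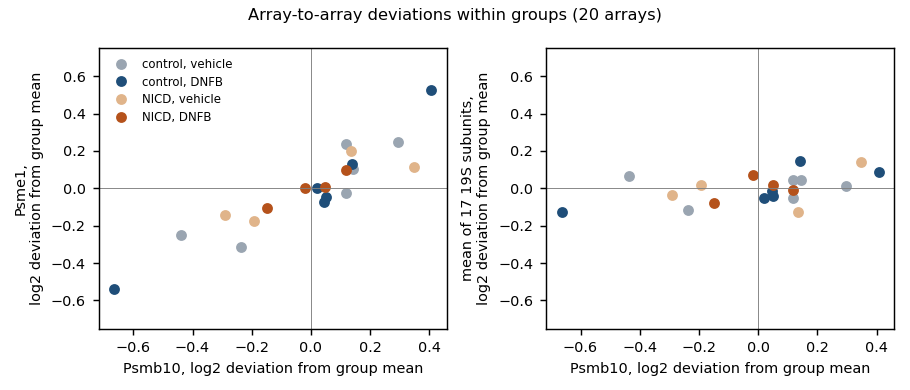
Deviation of each of the 20 arrays from its group mean, in log2 units, for Psmb10 (both x axes) against Psme1 (left) and against the mean of the 17 subunits of the 19S particle (right). Psme1 follows Psmb10 (Pearson correlation 0.91). The 19S mean, an average over 17 genes, lies between -0.12 and 0.14. That range does not say how closely the 19S mean follows Psmb10.

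The DNFB response of the 2 genotypes was compared directly as the difference of the DNFB effects, NICD minus control. Of the 46 genes 0 passed (limma, adjusted p under 0.05), and 2 of all 14886 probe sets did (0.0134%). At an unadjusted p under 0.05 there were 3 genes, Psmg1, Psmg4 and Psmd5, where 10.6% of all probe sets reached that level. Psmg1 gave 0.70 ± 0.23 (adjusted p 0.274), Psmg4 0.63 ± 0.22 (adjusted p 0.301) and Psmd5 0.39 ± 0.19 (adjusted p 0.461). The second probe set of the ATPase Psmc2, not counted among the 46, gave 1.12 ± 0.31 (adjusted p 0.180). For Psmb10 the difference was 0.48 ± 0.25 (adjusted p 0.526), for Psmb5 0.06 ± 0.22 and for Psmd14 0.01 ± 0.17. The DNFB effect was larger in NICD mice for 36 of the 46 genes, beside 52.3% of all probe sets, and the members' median difference was 0.10 beside 0.017. These genes share arrays and varied together, so they are not 46 independent observations. Their median was 0.078 without control DNFB replicate 3 and 0.138 without NICD vehicle replicate 2. Genotype, sex and array scale, described below, cannot be told apart here either. A difference that does not pass does not show that the responses were equal.

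Levels in NICD and control mice were compared within each treatment. The arrays of the 2 genotypes differed in scale: array medians were 3.87 to 3.98 in control and 3.52 to 3.62 in NICD mice, and the lowest value per array was 0.412 to 0.590 and 1.18 to 1.30. The median difference over all probe sets tested was -0.28 in vehicle and -0.27 in DNFB ears. The genotypes also differed in sex by their marker genes: Xist, the X inactivation transcript, read 2.27 to 3.16 in control and 8.47 to 9.07 in NICD arrays, and the Y-linked Eif2s3y 6.08 to 7.12 and 2.11 to 2.79. Genotype, sex and array scale cannot be told apart in these differences. Markers of other cells differed as well: in DNFB ears 3 of 4 platelet markers (median of the list -1.06), 3 of 7 fibroblast markers (-0.64) and 3 of 8 pericyte and smooth muscle markers (-0.45) were lower in NICD mice, and 1 of the last was higher. In vehicle ears 3 of 8 pericyte and smooth muscle markers were lower (-0.25). Their part in the differences of the proteasome genes was not tested.

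On the deposited scale 3 genes were higher and 9 lower in NICD vehicle ears, where 2.88% and 33% of all probe sets were. In DNFB ears 8 were higher and 6 lower, where 5.45% and 35.1% were. With each array centred on its median, 15 were higher and 0 lower in vehicle ears (11.9% and 6.54% of all probe sets), and 26 were higher and 0 lower in DNFB ears (20.7% and 8.12%). The members' median difference went from -0.11 to 0.22 in vehicle ears and from 0.02 to 0.40 in DNFB ears with that centring, so its direction in vehicle ears depends on the scaling. After quantile normalization 5 were higher and 1 lower in vehicle ears, and 9 higher and 1 lower in DNFB ears. Without NICD DNFB replicate 3 the 8 higher became 5. In vehicle ears the 3 higher became 1 without control vehicle replicate 1, without control vehicle replicate 5 or without NICD vehicle replicate 4, and the 9 lower became 5 without NICD vehicle replicate 2.

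Psmf1, the inhibitor, was higher in NICD mice in both treatments under every alternative that could be run. Its control arrays ran from 4.79 to 5.23 (median 5.05) with vehicle and from 5.10 to 5.50 (median 5.26) with DNFB. NICD arrays read 5.52, 5.78, 5.33 and 5.75 with vehicle and 5.83, 5.74, 5.92 and 6.04 with DNFB. The genotypes did not overlap in either treatment, and the difference was 0.56 ± 0.11 (adjusted p 0.00102) with vehicle and 0.61 ± 0.11 (adjusted p 0.000421) with DNFB. In DNFB ears 4 more genes were higher under every alternative: Psma1 by 0.40 ± 0.11 (adjusted p 0.00962), Psmb1 by 0.48 ± 0.12 (adjusted p 0.00293), Psmb6 by 0.45 ± 0.11 (adjusted p 0.00287) and Psme1 by 0.54 ± 0.16 (adjusted p 0.0121). The other 3 higher in DNFB ears were Psmd5, Psmg4 and Psmc3ip (0.42, 0.47 and 0.63), each of which was lost without NICD DNFB replicate 3 (0.34, 0.40 and 0.49, adjusted p up to 0.0764). Psmg4 was also lost without NICD DNFB replicate 2 (0.42, adjusted p 0.0648). In vehicle ears the others were Psmb1 (0.33 ± 0.12, adjusted p 0.0309) and Psmc3ip (0.52 ± 0.20, adjusted p 0.0435). Psmb1 ran from 9.56 to 9.87 (median 9.72) in control vehicle arrays and read 9.89, 10.25, 9.95 and 10.07 in NICD vehicle arrays, which did not overlap. Both calls were lost without some single arrays, Psmb1 without 5 of them and Psmc3ip without 8, with adjusted p up to 0.116 and 0.154.

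**Figure D5:**
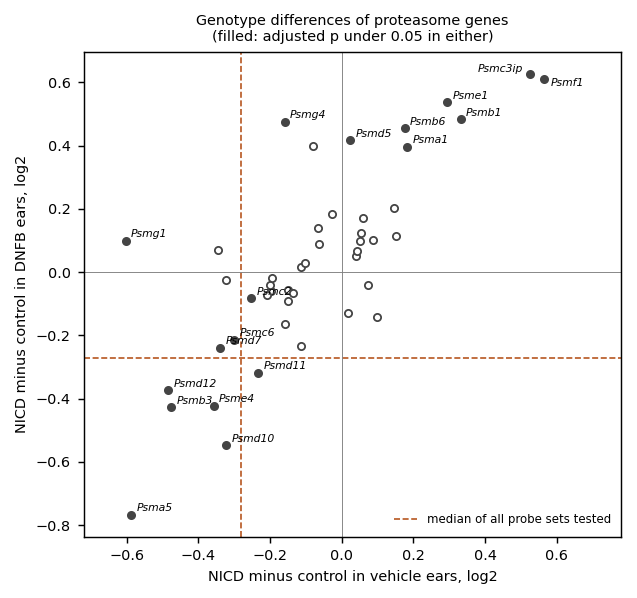
Log2 difference between NICD and control mice in vehicle ears (x axis) and DNFB ears (y axis) for the 46 genes tested; filled points passed adjusted p 0.05 in either, and dashed lines mark the median over all probe sets tested, -0.28 and -0.27. Psmf1, Psmc3ip, Psme1 and Psmb1 lie at the upper right and Psma5 at the lower left.

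Genes raised by DNFB could be lower in NICD mice on the deposited scale. Psmc6, an ATPase, was lower by -0.30 ± 0.08 (adjusted p 0.00692) in vehicle and by -0.21 ± 0.08 (adjusted p 0.0375) in DNFB ears, but these became 0.03 and 0.16, neither past the threshold, with arrays centred. Its vehicle arrays ran from 8.59 to 8.78 (median 8.72) in control mice and read 8.24, 8.45, 8.52 and 8.39 in NICD mice, with no overlap. Psmd11, a lid subunit, gave -0.23 ± 0.08 and -0.32 ± 0.08, and 0.09 and 0.05 with arrays centred. Psmc2 gave -0.25 ± 0.09 in vehicle ears and 0.07 with arrays centred, but its second probe set gave -1.23 ± 0.22 (adjusted p 0.000371) and stayed lower with arrays centred (-0.90, adjusted p 0.00787), so the probe sets of Psmc2 disagree. Psmd11 ran from 8.91 to 9.14 (median 9.11) in control vehicle arrays and read 8.82, 8.84, 8.76 and 8.96 in NICD vehicle arrays, which overlap, while its DNFB arrays ran from 10.13 to 10.44 (median 10.28) in control mice and read 10.01, 9.93, 9.94 and 9.98 in NICD mice, which do not. Psmc2 ran from 8.01 to 8.16 (median 8.06) in control vehicle arrays and read 7.83, 7.98, 7.78 and 7.68 in NICD vehicle arrays, with no overlap. The deposited-scale calls were lost without some single arrays for Psmc6 in DNFB ears (7 arrays) and for Psmd11 (8) and Psmc2 (6) in vehicle ears, with adjusted p up to 0.0881, 0.103 and 0.125. Quantile normalization and cyclic loess kept the negative sign of all 5 of these differences; that of Psmd11 in DNFB ears still passed (-0.28 with each, adjusted p 0.0221 and 0.0213), and the other 4 did not.

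Psmd12 was lower by -0.48 ± 0.11 (adjusted p 0.00197) in vehicle and -0.37 ± 0.11 (adjusted p 0.0093) in DNFB ears. With arrays centred these were -0.16 (adjusted p 0.38) and -0.00 (adjusted p 0.99). In vehicle ears Psmd12 still passed with quantile normalization (-0.31, adjusted p 0.0414) and with cyclic loess (-0.31, adjusted p 0.0382). In DNFB ears Psmd12 gave -0.26 (adjusted p 0.0691) and -0.25 (adjusted p 0.0820) with these scalings, neither past the threshold. Its vehicle arrays ran from 7.28 to 7.56 (median 7.36) in control mice and read 7.10, 7.01, 6.55 and 6.94 in NICD mice; with DNFB they ran from 8.53 to 8.74 (median 8.70) and read 8.43, 8.40, 8.24 and 8.10. NICD arrays lay below all control arrays in both treatments. The other lower calls on the deposited scale were Psma5 (-0.59), Psmb3 (-0.48), Psmd7 (-0.34), Psme4 (-0.36) and Psmg1 (-0.60) in vehicle ears and Psma5 (-0.77), Psmd10 (-0.55) and Psme4 (-0.42) in DNFB ears. With arrays centred, 0 members were called lower. Psma5 read near the array median. Its second probe set, which did not pass the filter, averaged 2.51 in control and 2.91 in NICD vehicle arrays, the opposite order. In DNFB arrays these means were 2.77 and 2.66. Psmd7, a lid subunit, ran from 8.68 to 9.03 (median 8.84) in control vehicle arrays and read 8.35, 8.45, 8.46 and 8.73 in NICD vehicle arrays, and only NICD vehicle replicate 4 reached into the control range. Psmb3 ran from 4.63 to 5.35 (median 4.96) and read 4.73, 4.35, 4.35 and 4.54, so that the genotypes overlapped. Calls in vehicle ears were lost without some single arrays for Psmb3 (9 arrays, adjusted p up to 0.109), Psmd7 (4 arrays, up to 0.0824), Psma5 (NICD vehicle replicate 4, -0.47, adjusted p 0.0612) and Psme4 (NICD vehicle replicate 2, -0.26, adjusted p 0.0937).

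Other genes of the pathway were taken whole from lists of symbols, in which 27 of 38 symbols were found. Adrm1 was not found with exactly 1 symbol. Of 9 further subunits and assembly or associated factors, 7 rose and 1 fell in control mice and 6 rose and 1 fell in NICD mice. Of all probe sets tested, 23.7% rose and 23.6% fell in control mice, and 20% rose and 18.1% fell in NICD mice. Pomp, the maturation factor that starts the beta ring, rose by 1.39 ± 0.13 (adjusted p 1.83e-08) and 1.31 ± 0.15 (adjusted p 1.12e-06). Txnl1, a thioredoxin bound to the 19S particle, rose by 1.46 and 1.24, and Usp14, a deubiquitinase on that particle, by 1.25 and 1.20. Smaller rises were those of Uchl5, the other deubiquitinase there (0.70 and 0.65), and Sem1, the smallest lid subunit (0.40 and 0.45). Fbxo7, which binds Psmf1, fell by 0.66 ± 0.12 (adjusted p 0.00011) and by 0.40 ± 0.15 (adjusted p 0.0339). Fbxo7 is a ubiquitin ligase adaptor. Its call in NICD mice was lost with no filter (adjusted p 0.0590), with arrays centred (0.0553), with quantile normalization (0.0818) and without NICD vehicle replicate 1, 2 or 3 or NICD DNFB replicate 2, 3 or 4 (up to 0.102). Ecpas, a proteasome adaptor counted among the 7 that rose, rose by 0.25 ± 0.10 in control mice (adjusted p 0.0380) and lost that call in 12 of 31 alternatives, among them quantile normalization and cyclic loess (adjusted p 0.0681 and 0.0715) and without control vehicle replicate 2, 4 or 5 or control DNFB replicate 1, 2, 3 or 5 (up to 0.108).

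Of 10 genes of ubiquitin handling and substrate delivery, 9 rose and 1 fell in control mice and 8 rose in NICD mice. The shares of all probe sets that rose were 23.7% in control and 20% in NICD mice, and 23.6% and 18.1% fell. Vcp, the segregase that extracts substrates, rose by 1.08 and 1.15, and its cofactors Nploc4 and Ufd1 by 1.05 and 0.72 in control mice and by 0.78 and 0.82 in NICD mice. The shuttle factors Rad23b and Ubqln1 rose by 1.03 and 0.99 in control mice and by 1.02 and 0.94 in NICD mice, and Ubqln2 fell by 0.49 in control mice (adjusted p 2.56e-05). Bag6, a chaperone counted among those that rose (0.25 and 0.29), did not pass with quantile normalization (adjusted p 0.0987 and 0.164) or cyclic loess (0.0524 and 0.176), nor in NICD mice without NICD vehicle replicate 4 (0.0750) or NICD DNFB replicate 1 (0.0843). Sqstm1, a ubiquitin-binding autophagy receptor, rose by 0.52 and 0.44, and the latter did not pass with cyclic loess (0.28, adjusted p 0.0861). Of 6 genes of proteasome transcription, 2 rose in each genotype, Maff (1.07 and 1.25) and Mafg (0.61 and 0.44), which encode small partners of the Nfe2l1 family. The call of Mafg in NICD mice was lost without NICD vehicle replicate 2 or NICD DNFB replicate 1 or 4 (adjusted p 0.0690 to 0.0771). The transcript of Nfe2l1 itself fell by 0.28 ± 0.07 (adjusted p 0.00342) in control mice and gave -0.12 ± 0.09 (adjusted p 0.304) in NICD mice, where it passed with cyclic loess (-0.24, adjusted p 0.0366). That of Nfe2l2, its relative, gave 0.03 ± 0.11 and 0.04 ± 0.13, neither past the threshold; both turned negative with quantile normalization and with cyclic loess. The activity of these factors was not measured.

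The 2 members by symbol only went separate ways. Psmc3ip, a recombination factor, rose by 0.58 ± 0.18 (adjusted p 0.00976) in control and by 0.68 ± 0.22 (adjusted p 0.0161) in NICD mice. Its control arrays ran from 3.93 to 4.44 (median 4.05) with vehicle and from 4.20 to 5.39 (median 4.55) with DNFB, which overlap, and its NICD arrays read 4.44, 4.33, 5.00 and 4.77 with vehicle and 5.26, 5.27, 5.72 and 5.01 with DNFB, which do not. The call in NICD mice was lost without NICD vehicle replicate 2 (0.58, adjusted p 0.0576) or NICD DNFB replicate 3 (0.55, adjusted p 0.0672). Psme3ip1, a partner of Psme3, gave 0.19 ± 0.11 (adjusted p 0.149) and -0.05 ± 0.13 (adjusted p 0.813).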

How the data were processed

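RNA of 20 sorted samples was hybridised to Affymetrix mouse arrays. The deposited values are on the log2 scale, 1 per probe set, made by the authors with RMA (robust multi-array average) in Affymetrix Expression Console, per the submitters' processing notes; versions and options are not given in the sources used here. RMA fits all arrays of a run together, and the differing scale of control and NICD arrays bears on every comparison between genotypes. Groups were taken from the sample titles.

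Of 41345 probe sets, 23521 carried 1 symbol, 1814 several and 16010 none; the last 2 kinds were left out. Probe sets above the array median on at least 4 arrays were kept (14886, of 14178 genes). Limma 3.58.1 in R 4.3.3 fitted 1 mean per group to all 20 arrays with moderated variances, and p-values were Benjamini-Hochberg adjusted over all probe sets kept, with a threshold of 0.05. In all 5 contrasts were taken: the DNFB effect in control mice and in NICD mice, the genotype effect in vehicle and in DNFB ears, and the first 2 subtracted from each other. The fit was tested on simulated data. Python 3.11.15 with matplotlib 3.10.9 made the figures. The number of arrays limits the precision.

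By the rule for named genes every member could be named, with values by array for the largest DNFB difference of each role in control mice, the catalytic and interferon-inducible subunits and members called in opposite directions. Other genes named come from 4 lists of symbols: Psmb8 and Psmb9, further subunits and assembly factors, transcription, and ubiquitin handling. The members and lists were chosen with earlier results of these data known. Symbols came from the platform's annotation, and all 47 were in the RefSeq table. Each choice was varied in turn: no filter or one at the 60th percentile, probe sets with any or no symbol, arrays centred on medians, quantile normalization, cyclic loess, trended and robust variances, only the groups compared, the replicate number as a random or fixed block, the mean of a gene's probe sets, and each array left out. Deviations from the group mean of same-numbered arrays correlated at 0.042 to 0.27 in control and 0.052 to 0.23 in NICD mice. The labels name no shared animal or day, so the main fit has no replicate block. Whether replicate numbers mark pairs is not settled, and with a fixed block some calls were gained and others lost.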

Additional observations from a re-analysis of the deposited data

Results flagged for a closer look

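In 11 of 184 groups of arrays (46 genes in 4 groups), the highest or lowest array stood far from the nearest of the others by Dixon's test; chance alone marks about 1 in 20 groups. Values are on the log2 scale. Control DNFB replicate 3 was the lowest of its group for 3 genes, with Psmb10 at 9.70 (next 10.39), Psmb3 at 5.12 (next 5.85) and Psmg4 at 5.73 (next 6.19); it also had the lowest score of its group on the first principal component, 31.8 beside 40.8 to 56.2. NICD vehicle replicate 2 was the highest for 3 genes, with Psma7 at 9.99 (next 9.65), Psmb6 at 9.25 (next 8.90) and Psme3ip1 at 9.25 (next 8.94). Control vehicle replicate 2 was the lowest for Psmb5 at 9.43 (next 9.86) and Psmd9 at 6.32 (next 6.54). The others were Psmd11 at 8.91 in control vehicle replicate 6 (next 9.06), Psmg1 at 5.63 in NICD vehicle replicate 3 (next 6.34) and Psmb5 at 10.83 in NICD DNFB replicate 2 (next 10.74). Without control DNFB replicate 3, 37 members rose with DNFB in control mice in place of 35.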

How the results depend on the processing

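With DNFB, the members as a group stayed higher under all 31 alternatives: with single arrays left out, 34 to 37 were higher in control mice and 34 to 38 in NICD mice, 0 were lower, and the medians were 0.75 to 0.85 and 0.90 to 0.97. Of the 35 calls in control mice 34 held throughout (all but Psmd9), and of the 36 in NICD mice 33 did (all but Psmc3ip, Psmd10 and Psmg2). The difference of the DNFB effects gave 0 members under every alternative; over all probe sets its 2 calls became 1 with no filter, quantile normalization or cyclic loess, 0 with any or no symbol or the mean of a gene's probe sets, 27 with trended and robust variances, and 0 to 29 with single arrays left out (the cause was not tested). The genotype comparisons moved with the scaling. In vehicle ears, members higher and lower went from 3 and 9 to 15 and 0 with arrays centred, and to 5 and 1 with quantile normalization and with cyclic loess; their median went from -0.11 to 0.22, 0.055 and 0.060, and all probe sets higher and lower from 428 and 4915 to 1767 and 974, 1020 and 1392, and 1175 and 1151. In DNFB ears, members went from 8 and 6 to 26 and 0 with arrays centred, 9 and 1 with quantile normalization and 10 and 1 with cyclic loess; their median went from 0.024 to 0.40, 0.13 and 0.14, and all probe sets from 811 and 5225 to 3074 and 1209, 1778 and 1775, and 1843 and 1696. All probe sets higher became 1396 and 1904 with no filter, and 660 in vehicle ears with any or no symbol. With single arrays left out, members higher and lower were 1 to 3 and 5 to 9 in vehicle ears and 5 to 9 and 5 to 8 in DNFB ears, with medians of -0.16 to -0.060 and -0.021 to 0.046. With arrays centred, differences between genotypes changed sign for Psmc2 (0.074 in vehicle ears), Psmc6 (0.027 and 0.16 in vehicle and DNFB ears) and Psmd11 (0.094 and 0.053). DNFB differences near 0, none past the threshold, also changed sign. In control mice, single arrays left out gave -0.15 to 0.075 for Psmb10, -0.26 to 0.081 for Psmb9, -0.021 to 0.29 for Psmb8 and -0.053 to 0.11 for Nfe2l2, which gave -0.039 with quantile normalization and -0.019 with cyclic loess. In NICD mice they gave -0.11 to 0.035 for Psme3ip1, -0.053 to 0.099 for Psme4 (-0.023 with cyclic loess), -0.19 to 0.050 for Mafk (0.0034 with arrays centred), -0.0078 to 0.085 for Nfe2l2 (-0.030 with quantile normalization, -0.056 with cyclic loess) and -0.059 to 0.12 for Akirin2 (-0.036 with cyclic loess). The cause of these was not tested. In 6 of 10 cases an array's own number gave its highest correlation, a hint of pairing from the data and not from the design. The correlations ran from 0.042 to 0.27, and the labels name no shared animal or day. Whether replicate numbers mark pairs is thus not settled. As a fixed replicate block they left 34 members higher in control and 37 in NICD mice and 3 probe sets for the difference of effects; Psmb10 (adjusted p 0.0152), Psme1 (0.0244) and Psmb8 (0.00215) then passed in NICD mice, while Psmd10 (0.0643) and Fbxo7 (0.0828) there and Psmd9 (0.0533) in control mice did not. A fixed block was not fitted to the genotype comparisons. As a random replicate block (correlation 0.095) they changed no count of members and gave 20 probe sets for the difference of effects. The number of arrays, and values near the array median for Psma5 and Psma8, limit what can be seen.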
